A study of Homo sapiens with 12 samples.

Results

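In all, 10 genes of squamous differentiation were followed through 4 pancreatic cancer cell groups, namely the small proline-rich protein genes SPRR1A, SPRR1B, SPRR2A, SPRR2D and SPRR3, with IVL, TGM1, LY6D, CRABP2 and DSG3. They were selected by name, with these FPKM values already known, and all 10 were found among the 58302 genes of the table. Values of these 10 genes are therefore given as a description with no p value. RNA was sequenced from BxPC-3 and CFPAC-1, both established human pancreatic ductal adenocarcinoma lines, and from BxPC-3-GR and CFPAC-1-GR, the gemcitabine (GEM)-resistant lines grown from them under stepwise rising GEM. Parental lines were labelled sensitive and had no GEM treatment named, and the morphology was labelled mesenchymal for BxPC-3-GR and epithelial for the other 3 groups. Each group had 3 replicates (12 libraries), and no source said that replicates were separate cultures, so p values measure the spread between these libraries, which may be technical. Each parental line gave 1 resistant line, so resistance and the history of that line cannot be told apart.

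The cornified envelope is the protein shell that replaces the plasma membrane of terminally differentiating squamous keratinocytes. Transglutaminases such as TGM1 cross-link involucrin (IVL), small proline-rich proteins and loricrin into it, and desmosomes, built with cadherins such as DSG3, hold neighboring cells together. Many envelope genes sit side by side on chromosome 1 in the epidermal differentiation complex. Normal pancreatic ducts do not cornify, but some pancreatic carcinomas show squamous differentiation, marked by TP63 and basal keratins. In the GRCh38 coordinates of the file, IVL (chr1:152908545-152911886), SPRR3 (chr1:153001747-153003856) and SPRR1B (chr1:153031202-153032900) lie on the plus strand, and SPRR2D (chr1:153039725-153041931) and SPRR2A (chr1:153056113-153057537) on the minus strand. CRABP2 (chr1:156699606-156705816, minus strand) is farther along chromosome 1, and TGM1 (chr14:24249114-24264432, minus strand), DSG3 (chr18:31447795-31478702, plus strand) and LY6D (chromosome 8, minus strand) are elsewhere.

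The deposited values were FPKM, that is, mapped fragments divided by the length of the gene and by the total of the library. The implied depth lay between 12600000 and 25200000 mapped fragments per library. Differences were taken on log2(FPKM + 1) with limma, restricted to genes that averaged 1 FPKM or more across the compared libraries, and a gene was called when its Benjamini-Hochberg adjusted p was below 0.05 and its absolute log2FC above 1. This scale understates the change of low genes. The summed FPKM of 6 squamous markers (TP63, KRT5, KRT6A, KRT14, KRT1, KRT10) ranged from 785 to 874 in BxPC-3, from 172 to 183 in BxPC-3-GR, from 28.1 to 32.1 in CFPAC-1 and from 22.8 to 24.8 in CFPAC-1-GR, and KRT1, a defining keratin of cornifying epidermis, was listed at 0 in all 12 libraries. Ductal epithelium markers (7 genes) summed to between 838 and 2920 in the 12 libraries. Mesenchymal markers (VIM, CDH2, FN1, ZEB1, ZEB2, SNAI2) summed to 51.9 to 57.5 in BxPC-3 and to 37.4 to 39.5 in BxPC-3-GR, the group labelled mesenchymal. That sum follows SNAI2, which averaged 41.2 and 23.0 FPKM in the 2 groups. VIM (6.59 and 0.813 FPKM) and ZEB1 (0.0329 and 0.00333 FPKM) were also lower in BxPC-3-GR without overlap. CDH2 (1.99 and 5.40 FPKM) and FN1 (5.30 and 9.09 FPKM) were higher in BxPC-3-GR without overlap, and ZEB2 overlapped. Acinar, endocrine, immune, fibroblast and endothelial markers summed to at most 4.59.

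SPRR1B, which encodes a cross-linked bridge protein of the envelope, had the highest level of the 10 genes in any group. Its FPKM was 344, 336 and 310 in the BxPC-3 libraries (330 ± 17.6, SD, n = 3) and 9.23, 6.80 and 8.51 in BxPC-3-GR (8.18 ± 1.25, n = 3). BxPC-3-GR thus lay far below its parental line in every library, with mean FPKM 40.4-fold lower and a log2FC of -5.18 (SE 0.110). CFPAC-1 gave 0.166, 0 and 0.252 FPKM, and CFPAC-1-GR gave 0.517, 0.660 and 0.726 FPKM. These correspond to at most 2 fragments per CFPAC-1 library and 7 in each CFPAC-1-GR library, so the gene was near the limit of detection in both, with the resistant libraries above the parental ones. In bulk RNA, fewer cells that express a gene and less RNA per cell cannot be told apart. The summed squamous markers were, like SPRR1B, lower in BxPC-3-GR than in BxPC-3, and their part in that difference was not tested. In the CFPAC-1 line the sum was lower in the resistant libraries, in which SPRR1B was higher. Most of that sum was KRT10, at 21.9 to 24.6 FPKM in CFPAC-1 and 19.3 to 20.8 FPKM in CFPAC-1-GR. KRT10 was lower in BxPC-3, at a mean of 9.28 FPKM. KRT5 averaged 4.46 FPKM in CFPAC-1 and 0.794 FPKM in CFPAC-1-GR, without overlap. TP63 was higher in CFPAC-1-GR without overlap (0.0719 FPKM in CFPAC-1 and 0.130 FPKM in CFPAC-1-GR), and KRT6A and KRT14 overlapped. The listed genes thus did not share 1 direction in this line.

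SPRR1A, the close relative of SPRR1B, followed the same order of groups with a smaller difference. Its FPKM was 42.4, 40.6 and 42.1 in BxPC-3 and 7.21, 7.20 and 9.40 in BxPC-3-GR, which gave a 5.25-fold lower mean and a log2FC of -2.27 (SE 0.102). It was listed at 0 in all CFPAC-1 libraries and in 2 of 3 CFPAC-1-GR libraries, the other one holding 1 fragment. The annotated gene behind this row is a single exon of 270 bases (chr1:152985231-152985500, plus strand), little more than the 267 coding bases, whereas the RefSeq start of SPRR1A lies 1150 bases before it. Its FPKM therefore rests on the coding exon, and its level should not be set against that of SPRR1B, whose exons cover 620 bases.

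**Figure D1:**
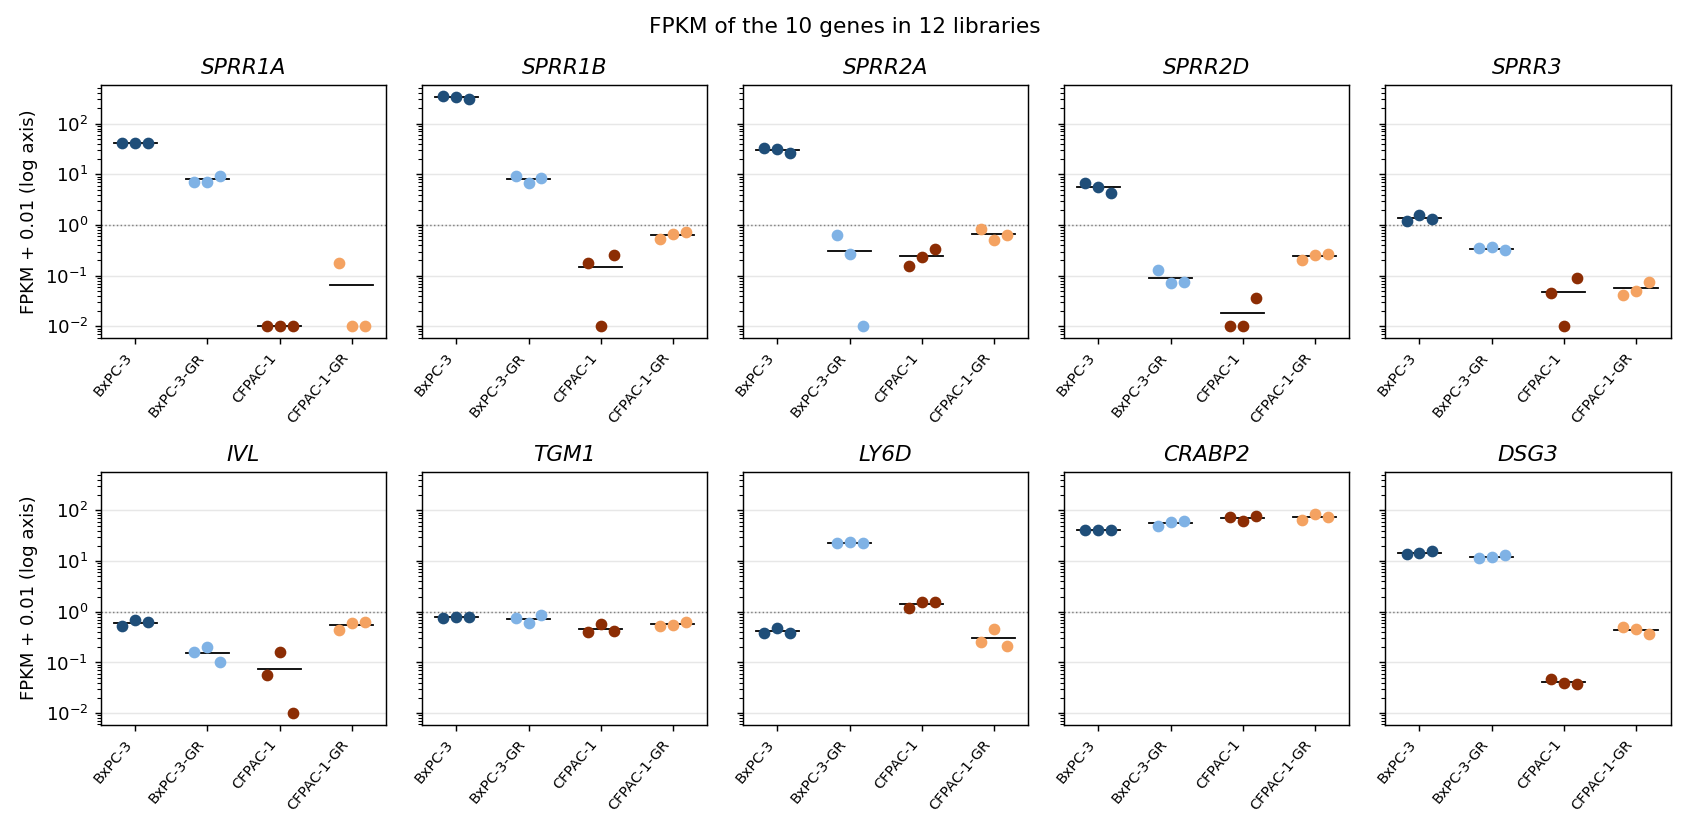
FPKM + 0.01 on a log axis for each of the 10 genes, with 1 point per library (3 per group), the group mean as a black line, and a dotted line at 1 FPKM. SPRR1A, SPRR1B, SPRR2A and SPRR2D are highest in BxPC-3, LY6D is highest in BxPC-3-GR, and CRABP2 lies between 40.1 and 84.7 FPKM in all 12 libraries.

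SPRR2A and SPRR2D encode short proline-rich envelope proteins of the SPRR2 branch. SPRR2A stood at 32.6, 31.5 and 26.3 FPKM in BxPC-3 and at 0.616, 0.261 and 0 FPKM in BxPC-3-GR, a log2FC of -4.61 (SE 0.183). The BxPC-3-GR values amount to 11, 4 and 0 fragments against 319 to 438 in BxPC-3, and the resistant libraries overlapped with those of both CFPAC-1 lines. CFPAC-1 gave 0.145, 0.224 and 0.330 FPKM and CFPAC-1-GR 0.840, 0.494 and 0.635 FPKM, a 2.82-fold higher mean in the resistant line, on 2 to 3 fragments against 6 to 13.

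SPRR2D had a lower FPKM than SPRR2A in each library except BxPC-3-GR replicate 3, where SPRR2A was listed at 0. It gave 6.60, 5.66 and 4.22 FPKM in BxPC-3 and 0.117, 0.0607 and 0.0660 FPKM in BxPC-3-GR, a 67.6-fold lower mean (log2FC -2.57, SE 0.136). That fold rests on 1.4 to 3.1 implied fragments per BxPC-3-GR library, against 76 to 121 in BxPC-3, so its size is imprecise. In CFPAC-1 SPRR2D was listed at 0 in 2 libraries and at 0.0255 FPKM in the third. CFPAC-1-GR gave 0.195, 0.249 and 0.253 FPKM, or 4.2 to 4.5 implied fragments. The groups did not overlap in either line, and BxPC-3-GR lay below its parental line while CFPAC-1-GR lay above.

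The SPRR genes are paralogs of close sequence, and fragments can be split between copies. The first 120 coding bases are shown because they mark how far short fragments can separate the copies. Lower case marks bases equal to the first sequence of each pair, and capitals mark the differences.
SPRR2A: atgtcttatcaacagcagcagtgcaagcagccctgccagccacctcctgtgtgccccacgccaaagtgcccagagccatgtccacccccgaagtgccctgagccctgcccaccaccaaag
SPRR2D: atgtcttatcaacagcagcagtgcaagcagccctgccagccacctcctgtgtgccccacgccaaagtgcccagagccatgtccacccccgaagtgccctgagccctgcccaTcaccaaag
SPRR1B: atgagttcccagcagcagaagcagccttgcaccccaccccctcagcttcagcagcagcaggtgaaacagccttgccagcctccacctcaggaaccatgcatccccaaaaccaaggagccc
SPRR1A: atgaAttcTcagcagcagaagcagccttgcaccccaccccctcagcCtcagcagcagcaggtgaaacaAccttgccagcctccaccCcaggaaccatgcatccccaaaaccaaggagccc
SPRR2D differed from SPRR2A by 1 of 120 bases (C112T, counted from the A of the start codon, SPRR2A base first), and SPRR2B and SPRR2E had 0 differences from SPRR2A there. SPRR1A differed from SPRR1B by 5 bases (G5A, C9T, T47C, G69A and T87C, SPRR1B base first). Over whole transcripts, 32.7% of the 50-base words of SPRR2A and 26.8% of those of SPRR2D also occurred in another gene, against 11.3% for SPRR1A and 4.38% for SPRR1B. At 100 bases the shares were 20.3%, 4.56%, 0% and 0%. The handling of such fragments is not given in the sources used here, so the split of SPRR2 values among copies is uncertain, while SPRR3, IVL, TGM1, LY6D and CRABP2 shared 0% of 50-base words and DSG3 4.18%.

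SPRR3, a family member best known from the esophagus and other internal squamous linings, was low throughout. It had 1.19, 1.56 and 1.31 FPKM in BxPC-3 and 0.342, 0.351 and 0.305 FPKM in BxPC-3-GR, a 4.07-fold lower mean. The CFPAC-1 and CFPAC-1-GR libraries lay between 0 and 0.0806 FPKM and overlapped.

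IVL, the scaffold protein on which the envelope is laid down, stayed below 1 FPKM in all 12 libraries. It gave 0.508, 0.663 and 0.625 FPKM in BxPC-3 and 0.148, 0.194 and 0.0935 FPKM in BxPC-3-GR, a 4.13-fold lower mean, or 19 to 28 fragments against 5 to 9. The CFPAC-1 libraries held 0.0478, 0.147 and 0 FPKM and the CFPAC-1-GR libraries 0.426, 0.597 and 0.628 FPKM, which is 2, 4 and 0 fragments against 20, 22 and 21. By level, CFPAC-1-GR overlapped with BxPC-3, and BxPC-3-GR with CFPAC-1.

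TGM1, the membrane-bound transglutaminase of keratinocytes, separated no resistant line from its parental line. It gave 0.754, 0.780 and 0.776 FPKM in BxPC-3, 0.746, 0.592 and 0.839 FPKM in BxPC-3-GR, 0.382, 0.576 and 0.406 FPKM in CFPAC-1 and 0.521, 0.535 and 0.629 FPKM in CFPAC-1-GR. The enzyme's transcript thus had a low level in all 4 groups, each of which overlapped with the next in order, though BxPC-3 and CFPAC-1 did not overlap. SPRR1B and SPRR2D, whose proteins are among the substrates of such enzymes, differed 40.4-fold and 67.6-fold in mean FPKM between BxPC-3-GR and BxPC-3. The fold of SPRR2D rests on 1.4 to 3.1 implied fragments per BxPC-3-GR library.

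Promoters of 7 of the 10 genes were found in RefSeq (GRCh38.p14, 250 bases before to 50 after the start). SPRR2D, TGM1 and LY6D were not in this table. The 5 shown are those holding TGANTCA, the AP-1 motif. Each is written in the direction of transcription, and capitals mark TGANTCA and TATAAA.
SPRR1B, chr1:153030953-153031252, plus strand: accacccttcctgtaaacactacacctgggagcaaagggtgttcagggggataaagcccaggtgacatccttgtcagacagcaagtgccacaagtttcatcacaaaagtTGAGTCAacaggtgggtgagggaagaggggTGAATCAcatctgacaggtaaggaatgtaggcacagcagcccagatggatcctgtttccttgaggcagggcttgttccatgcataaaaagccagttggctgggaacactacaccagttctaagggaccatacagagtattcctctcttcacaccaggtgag
SPRR1A, chr1:152983831-152984130, plus strand: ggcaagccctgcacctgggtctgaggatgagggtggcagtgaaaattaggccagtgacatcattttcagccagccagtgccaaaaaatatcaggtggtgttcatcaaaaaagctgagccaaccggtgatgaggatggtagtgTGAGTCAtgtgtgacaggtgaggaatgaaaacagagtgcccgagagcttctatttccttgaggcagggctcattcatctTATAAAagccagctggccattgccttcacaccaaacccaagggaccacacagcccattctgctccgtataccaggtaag
SPRR2A, chr1:153057463-153057762, minus strand: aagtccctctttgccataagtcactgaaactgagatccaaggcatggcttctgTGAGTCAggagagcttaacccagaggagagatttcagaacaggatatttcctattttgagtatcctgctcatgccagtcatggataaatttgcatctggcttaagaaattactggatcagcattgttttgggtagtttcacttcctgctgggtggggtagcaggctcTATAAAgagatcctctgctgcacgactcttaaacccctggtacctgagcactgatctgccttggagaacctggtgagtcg
SPRR3, chr1:153001499-153001798, plus strand: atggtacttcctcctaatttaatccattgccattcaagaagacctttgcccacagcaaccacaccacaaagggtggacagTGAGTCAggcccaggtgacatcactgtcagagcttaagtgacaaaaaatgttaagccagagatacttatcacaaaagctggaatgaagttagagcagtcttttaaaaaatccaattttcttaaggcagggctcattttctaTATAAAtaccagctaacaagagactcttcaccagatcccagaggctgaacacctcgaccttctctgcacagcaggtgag
IVL, chr1:152908296-152908595, plus strand: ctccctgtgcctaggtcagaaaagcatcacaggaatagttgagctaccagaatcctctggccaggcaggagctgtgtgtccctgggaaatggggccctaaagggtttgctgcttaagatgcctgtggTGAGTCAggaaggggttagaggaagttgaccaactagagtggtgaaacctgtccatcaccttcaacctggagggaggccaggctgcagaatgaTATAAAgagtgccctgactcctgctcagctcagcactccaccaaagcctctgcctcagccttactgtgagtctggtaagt
TGANTCA, which reads alike on both strands, was present in 5 of 7 promoters and in 7.71% of 35116 RefSeq promoters of the same length. SPRR1B held it at 141 and 111 bases before the start, SPRR1A at 108, SPRR2A at 197, SPRR3 at 170 and IVL at 123. TATAAA, searched on both strands, was present in 4 of 7 (11.5% of all) at 29 or 30 bases before the start, and SPRR1B lacked it. AGGAAG, the core of ETS motifs, was found in 5 of 7 promoters (33.6% of all), on either strand. GGGCGG, a GC box, was in 0 of 7 on either strand (45.0% of all). The promoters of CRABP2 and DSG3 held neither TGANTCA nor TATAAA. With the deposited scaling DSG3 was also lower in BxPC-3-GR without overlap, and the promoter of SPRR2B, an SPRR2 copy that fell there, lacked TGANTCA too. The promoter of SPRR2F, another SPRR2 copy that fell there, held TGANTCA at 196 bases before the start. In IVL the first AGGAAG shared 1 base with TGANTCA, and no other matches overlapped. A match of letters is a description and not a site of binding.

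LY6D, a GPI-anchored surface protein of the LY6 family made by stratified epithelia, went the other way from the SPRR genes. It gave 0.373, 0.460 and 0.363 FPKM in BxPC-3 and 22.9, 24.0 and 22.9 FPKM in BxPC-3-GR, a 58.3-fold higher mean with a log2FC of 4.12 (SE 0.0528). In the CFPAC-1 line the direction was opposite, with 1.18, 1.52 and 1.54 FPKM in the parental libraries and 0.246, 0.445 and 0.200 FPKM in CFPAC-1-GR, a 4.76-fold lower mean. BxPC-3-GR was therefore the highest of the 4 groups, 16.5-fold above CFPAC-1, and BxPC-3 and CFPAC-1-GR overlapped at the bottom.

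CRABP2, a cytosolic retinoic acid-binding protein that rises in differentiating keratinocytes, was the only one of the 10 with at least 1 FPKM in all 12 libraries. It gave 41.2, 41.4 and 40.1 FPKM in BxPC-3 and 48.9, 58.2 and 63.0 FPKM in BxPC-3-GR, a log2FC of 0.45 (SE 0.0959) with no overlap of the groups. CFPAC-1 gave 74.6, 60.8 and 77.0 FPKM and CFPAC-1-GR 64.8, 84.7 and 75.6 FPKM, which overlapped (log2FC 0.08, SE 0.131). This last difference moved from -0.41 to 0.75 over the alternative settings, so its direction depended on the scaling and on the correction for GC content.

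DSG3, a desmosomal cadherin of the lower layers of squamous epithelium, differed mainly between the 2 lines of origin. It gave 13.8, 14.7 and 15.6 FPKM in BxPC-3 and 11.6, 11.8 and 13.4 FPKM in BxPC-3-GR (log2FC -0.24, SE 0.0757), against 0.0373, 0.0287 and 0.0282 FPKM in CFPAC-1. The mean was 468-fold higher in BxPC-3 than in CFPAC-1. CFPAC-1-GR held 0.498, 0.444 and 0.349 FPKM, 13.7-fold above CFPAC-1 and 28.5-fold below BxPC-3-GR, on 30 to 60 fragments against 2 to 4 in CFPAC-1.

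In BxPC-3-GR against BxPC-3, 7 of the 10 genes reached a mean of 1 FPKM, of which 4 were past the criteria downward (SPRR1B, SPRR2A, SPRR2D, SPRR1A) and 1 upward (LY6D), while CRABP2 and DSG3 were not past them. SPRR2A, SPRR2D and LY6D reached that mean through 1 of the 2 groups alone. Of all 11710 genes tested, 4.14% were called higher and 3.62% lower. Counting all 10 regardless of level, 2 were higher and 7 lower with no overlap of the groups, and TGM1 overlapped. Among the 7 tested, 2 were higher and 5 lower, beside 30.1% and 36% of all genes tested. Because the genes were chosen with this contrast in view, the counts are a description, and nothing is read from their distance to the background.

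In CFPAC-1-GR against CFPAC-1, CRABP2 alone reached the minimum mean, and it was not past the criteria. Here 20.5% of 12051 genes were called higher and 11.7% lower. By overlap, 5 of the 10 genes were higher (SPRR1B, SPRR2A, SPRR2D, IVL, DSG3) and 1 lower (LY6D), beside 45.7% and 36.4% of all genes tested. Those shares cover genes that averaged 1 FPKM or more, which none of the 6 did, so they are not a like background. All 6 lay the opposite way in the BxPC-3 lines, and the share of all genes that did so was not counted. The same 6 genes stayed apart in the same directions in the CFPAC-1 lines under median-of-ratios and upper-quartile scaling. Their CFPAC-1-GR levels were between 0.195 and 0.840 FPKM, or 4 to 60 fragments per library, which limits how precisely the sizes are known.

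Between the parental lines, 6 genes reached the minimum mean and 5 of them, which reached it through BxPC-3 alone and so could only be higher there, had log2FC values of 8.19 (SPRR1B), 5.42 (SPRR1A), 4.66 (SPRR2A), 3.93 (DSG3) and 2.67 (SPRR2D). Of 11842 genes tested, 24.7% were called higher and 19.8% lower. LY6D and CRABP2 were lower in BxPC-3, 3.54-fold and 1.73-fold by mean FPKM with no overlap, although the log2FC of CRABP2 (-0.77) came to 0.06 after correction for GC content and length. The difference of response, BxPC-3-GR minus BxPC-3 less CFPAC-1-GR minus CFPAC-1, was -5.71 for SPRR1B, -5.04 for SPRR2A, -2.86 for SPRR2D, -2.34 for SPRR1A and 5.01 for LY6D on the log2 scale. SPRR2A and SPRR2D reached the minimum mean of this contrast through BxPC-3 alone, so their values could only be negative. LY6D reached it through BxPC-3-GR alone, so its value could only be positive. All genes tested had 14.4% positive and 23.6% negative calls in this contrast.

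**Figure D2:**
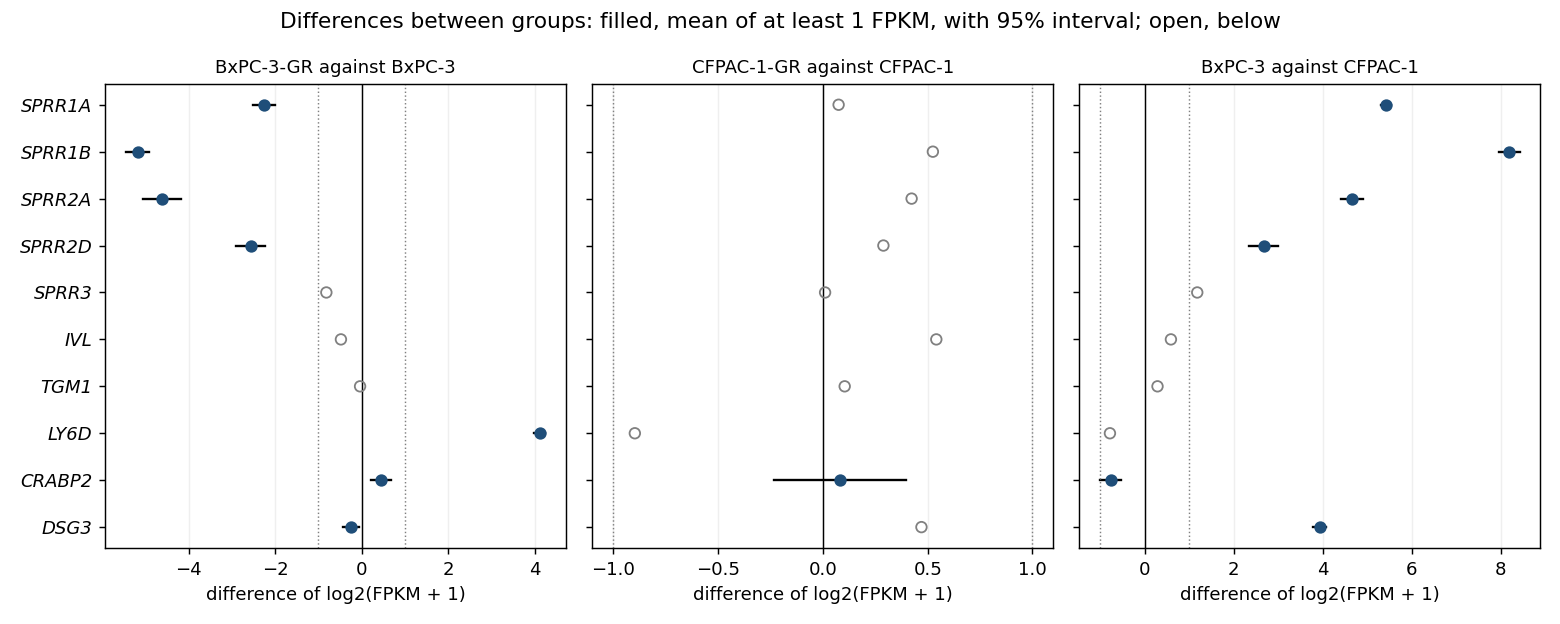
Difference of log2(FPKM + 1) for each gene in 3 comparisons, each panel with its own range. Filled points are genes that averaged 1 FPKM or more over the 6 libraries, with the 95% interval of limma as a bar, open points are genes below that level, and dotted lines mark -1 and 1. SPRR1B lies at -5.18 in BxPC-3-GR against BxPC-3 and at 8.19 in BxPC-3 against CFPAC-1.

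The SPRR genes with low levels in BxPC-3-GR lie in a short stretch of chromosome 1. Distances were taken from the start of SPRR1B to the lowest coordinate of each gene, whatever its strand. From SPRR4 to SPRR2G, 13 annotated genes lie between -60.5 and 118 kb. The 8 that averaged 1 FPKM or more over the 6 libraries were lower in BxPC-3-GR and past the criteria, with a median log2FC of -2.78. These were 4 of the genes followed here and SPRR2B, SPRR2E, SPRR2F and SPRR2C. Of the 8, SPRR2A, SPRR2D, SPRR2B, SPRR2E and SPRR2F passed that minimum through BxPC-3 alone and could only be lower in BxPC-3-GR, and SPRR3, at 1.36 FPKM in BxPC-3, did not reach it. Within 3 Mb before the stretch, 39 genes were tested, with 1 called higher, 1 lower and a median of 0.05, and within 3 Mb after it 59 were tested, with 4 higher, 4 lower and a median of -0.03. The nearest tested genes on either side were S100A11 at -999 kb (log2FC -0.27) and S100A9 at 327 kb (log2FC -1.89). The limits of the stretch and its neighbors were chosen after the values were seen.

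**Figure D3:**
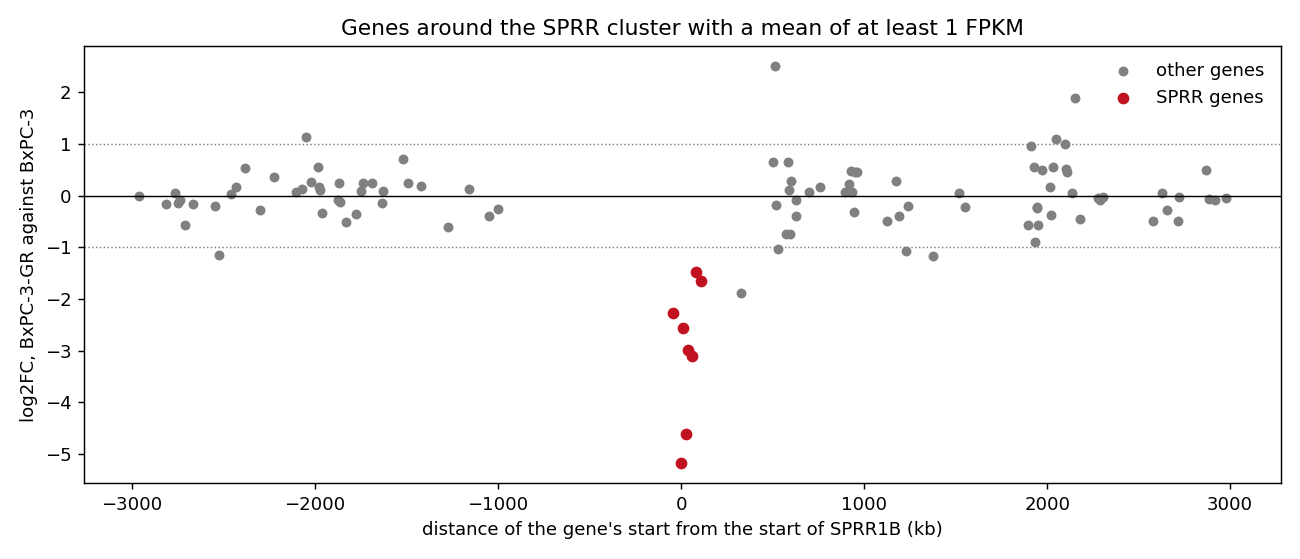
Log2FC of BxPC-3-GR against BxPC-3 for each tested gene within 3 Mb of the SPRR cluster, with SPRR genes in red and dotted lines at -1 and 1. The horizontal axis is the distance in kb of its lowest coordinate, whatever its strand, from the start of SPRR1B. The 8 SPRR genes lie between -5.18 and -1.48, and the genes around them scatter about 0.

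Beyond the 10 genes, 155 others of squamous differentiation were read in 8 lists, and these were tested. Many were not detected, with 30 listed at 0 in all 12 libraries and 77 below 1 FPKM in each. In the epidermal differentiation complex list, 23 of 38 genes were at 0 throughout, including LOR, which encodes loricrin, and 4 reached 1 FPKM, all of them SPRR2 copies. All 4 fell in BxPC-3-GR, and SPRR2B, SPRR2E and SPRR2F passed the minimum mean through BxPC-3 alone. SPRR2E went from 8.40 ± 0.735 to 0.0909 ± 0.0836 FPKM (log2FC -3.11, adjusted p = 3.46e-06), SPRR2B from 7.19 ± 0.924 to 0.0250 ± 0.0433 FPKM (log2FC -2.99, adjusted p = 5.1e-06), SPRR2C from 5.67 ± 1.89 to 1.15 ± 0.730 FPKM (log2FC -1.65, adjusted p = 0.0055) and SPRR2F from 1.98 ± 0.429 to 0.0589 ± 0.0591 FPKM (log2FC -1.48, adjusted p = 0.000129), all by limma with n = 3 per group. As copies of SPRR2A and SPRR2D they may share fragments with these.

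Over all 155 genes, 61 were tested in BxPC-3-GR against BxPC-3, and 8 rose and 6 fell, beside 4.14% and 3.62% of all genes, with a median log2FC of 0.20 against -0.05. Outside the SPRR2 copies, the LY6 and uPAR family gave 5 of the other 10 calls. LYPD2 rose from 0.912 to 9.27 FPKM (log2FC 2.40, adjusted p = 0.000183), PSCA, the prostate stem cell antigen, from 0.272 to 5.05 FPKM (2.24, adjusted p = 3.33e-05) and LY6K from 0.937 to 3.89 FPKM (1.33, adjusted p = 2.69e-05). PLAUR, the urokinase receptor, fell (-1.28, adjusted p = 0.000123), as did LYPD3 (-1.07, adjusted p = 0.000179). Of the desmosome list, DSC2 rose (1.55, adjusted p = 1.3e-05) among 11 tested, and of the retinoid list RARB (1.02, adjusted p = 0.000224) among 10. LYPD2, PSCA, LY6K and RARB passed the minimum mean through BxPC-3-GR alone, so they could only be higher there. SMPD1, acid sphingomyelinase, rose (2.21, adjusted p = 0.000137) as the only call among 2 tested in the barrier lipid list. Its neighbors on the chromosome were not looked at here, so the call is for this gene and not for the list.

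Regulators of squamous and epithelial identity gave 2 calls among 17 tested, both upward. SOX2, a lineage factor of foregut and squamous cells, rose from 7.90 ± 0.247 to 74.4 ± 3.85 FPKM (log2FC 3.08, adjusted p = 1.3e-06), and ELF3, an epithelial ETS factor, from 3.96 ± 0.219 to 24.9 ± 2.88 FPKM (2.38, adjusted p = 1.12e-05). TP63, the master regulator of squamous epithelium, was not called, at 14.9 ± 1.65 and 13.3 ± 0.673 FPKM (log2FC -0.15, 95% interval -0.36 to 0.07, adjusted p = 0.20). Nor were CSTA, an envelope protease inhibitor (34.9 and 35.0 FPKM, log2FC 0.00), and the desmosome genes DSC3 (19.4 and 23.2 FPKM, log2FC 0.25) and PKP1 (36.9 and 28.0 FPKM, log2FC -0.41). Other squamous genes had lower levels in BxPC-3-GR without overlap of the libraries. The basal and stress keratins KRT5 (350 and 49.8 FPKM), KRT6A (452 and 109 FPKM) and KRT14 (1.92 and 0.109 FPKM) did so, as did GRHL3, a barrier regulator that was below the minimum mean (0.699 and 0.0291 FPKM). These 4 genes were chosen after their values were seen.

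**Figure D4:**
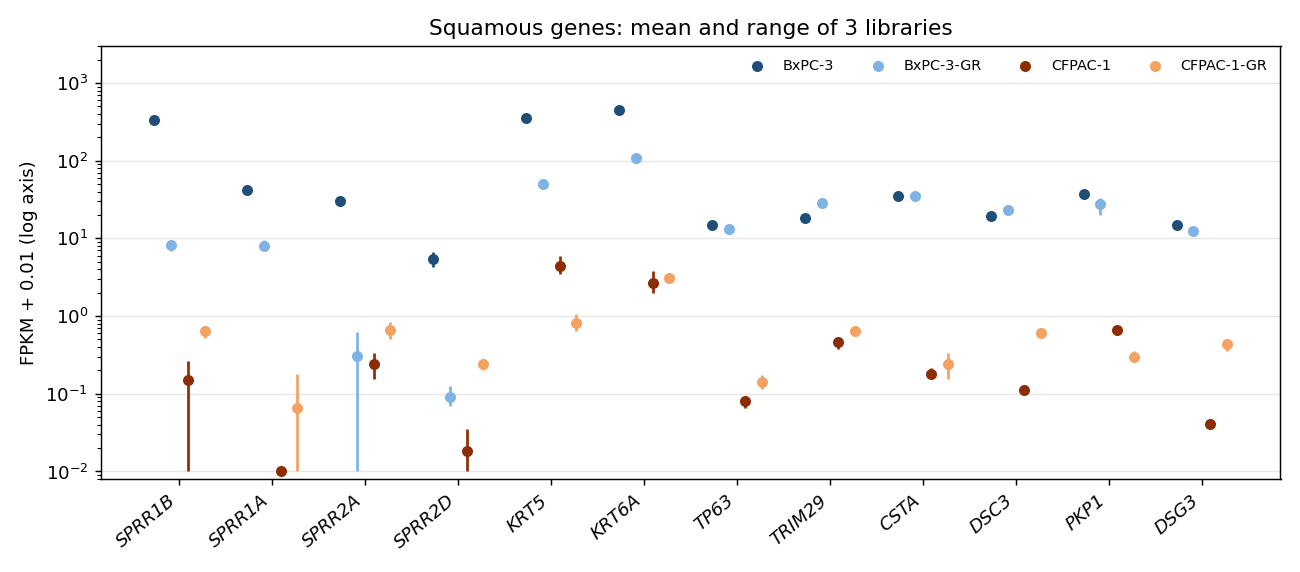
FPKM + 0.01 on a log axis for 4 SPRR genes and 8 other squamous genes, with points for group means and bars from the lowest to the highest of 3 libraries. The 4 SPRR genes, KRT5 and KRT6A are lower in BxPC-3-GR than in BxPC-3, TP63, CSTA, DSC3, PKP1 and DSG3 are not past the criteria, and all 12 genes are lower in CFPAC-1 than in BxPC-3.

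In CFPAC-1-GR against CFPAC-1, 58 of the 155 genes were tested, and 12 rose and 9 fell, beside 20.5% and 11.7% of all genes, with a median log2FC of -0.20 against 0.13 for all genes. After correction for GC content and length the counts were 8 and 4, under median-of-ratios scaling 10 and 19, and under upper-quartile scaling 8 and 24, so the balance of directions rests on the scaling. Calls kept after the correction included the epidermal kallikreins KLK5 (log2FC 2.29, adjusted p = 4.13e-05) and KLK6 (1.73, adjusted p = 6.25e-06), the protease inhibitor CST6 (1.93, adjusted p = 8.04e-06) and the regulators EHF (2.46, adjusted p = 6.76e-05), GRHL2 (1.46, adjusted p = 7.25e-06) and TFAP2C (1.05, adjusted p = 2.17e-05). KLK5 passed the minimum mean through CFPAC-1-GR alone, so it could only be higher there. LYPD1 (-2.76, adjusted p = 6.25e-06) and RBP4 (-2.53, adjusted p = 5.67e-06) fell and also kept their calls. The desmosome genes DSG2 (1.77), DSP (1.46) and DSC2 (1.26) and the precursor envelope proteins SCEL (1.90) and ANXA1 (1.38) were called higher, and EVPL (-1.22), CNFN (-1.43), PITX1 (-1.78), TGM2 (-1.15), KLK11 (-1.25) and LY6E (-1.21) lower, but none of these was called after the correction. No gene of the epidermal differentiation complex list reached the minimum mean in this line.

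Between the parental lines 66 of the 155 genes were tested, with 23 higher and 24 lower in BxPC-3 (26 and 17 after the correction), beside 24.7% and 19.8% of all genes. The desmosome list leaned to BxPC-3, with 6 higher and 2 lower of 11, led by PKP1 (log2FC 4.51, adjusted p = 1.24e-07), DSC3 (4.20, adjusted p = 8.77e-08) and DSP (3.57, adjusted p = 1.11e-07). CSTA (4.94, adjusted p = 3.4e-08), TP63 (3.89, adjusted p = 1.5e-07) and TRIM29 (3.73, adjusted p = 9.51e-08) were also higher, as were SPRR2E, SPRR2B and SPRR2C, each listed at 0 in all CFPAC-1 libraries. Higher in CFPAC-1 were the kallikreins KLK10 (-4.84, adjusted p = 1.87e-07) and KLK6 (-4.31, adjusted p = 1.51e-07), the tissue transglutaminase TGM2 (-3.27, adjusted p = 2.67e-07), LYPD1 (-5.36, adjusted p = 3.4e-08), RBP4 (-3.54, adjusted p = 8.22e-08) and ELF3 (-3.29, adjusted p = 1.33e-07). SOX2 was also higher in CFPAC-1 (-1.99, adjusted p = 3.07e-07). PKP1, DSC3, CSTA, TP63, TRIM29 and the SPRR2 copies passed the minimum mean through BxPC-3 alone, so they could only be higher there. KLK10, KLK6, LYPD1 and RBP4 passed it through CFPAC-1 alone and could only be higher in CFPAC-1. Of the LY6 and uPAR family, 5 of 7 genes tested were called lower in BxPC-3 by limma and 0 higher (3 and 1 after the correction). Of the 5, LYPD1, PSCA, LY6K and LYNX1 passed the minimum mean through CFPAC-1 alone and could only be lower in BxPC-3. LYPD3 (8.96 and 4.02 FPKM) and PLAUR (9.11 and 7.40 FPKM) were higher in BxPC-3 without overlap and not past the criteria.

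**Figure D5:**
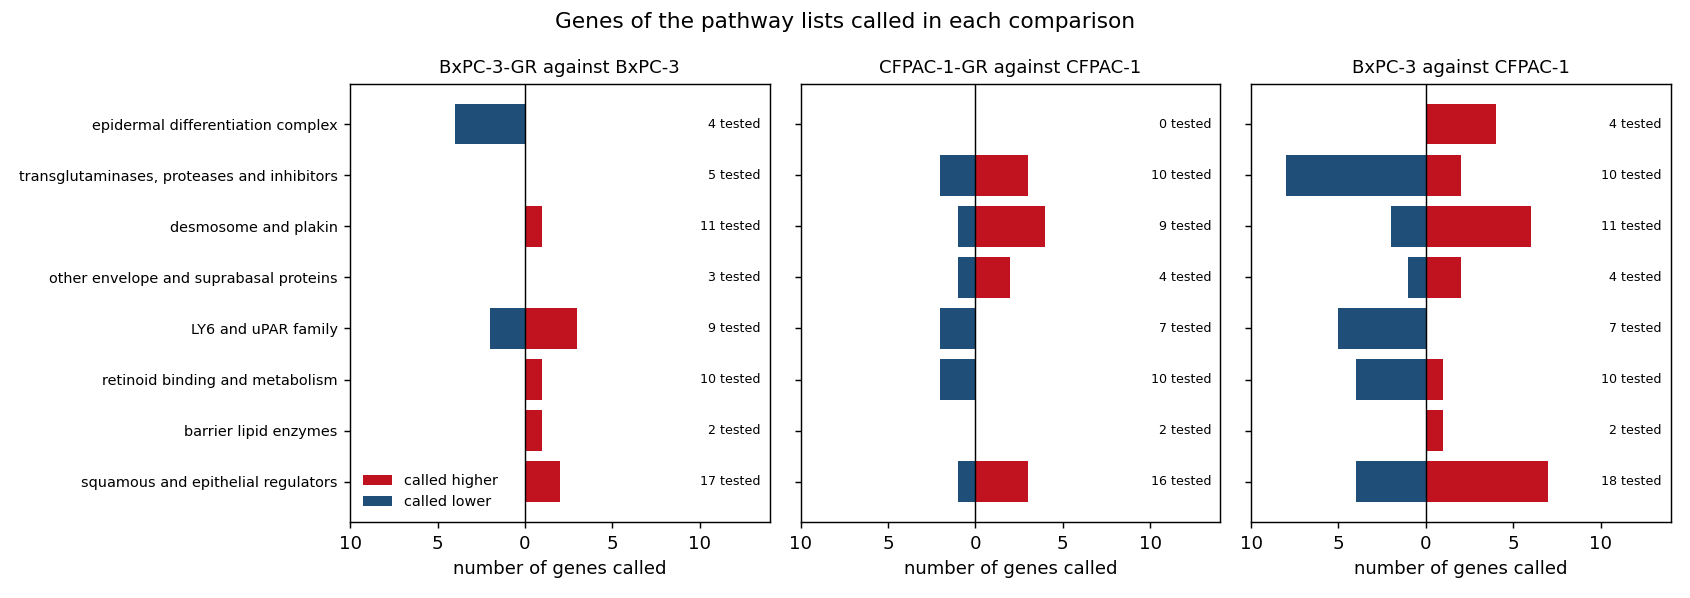
Number of genes called higher (red, right) and lower (blue, left) in each of the 8 lists for 3 comparisons, with the number tested at the right. The epidermal differentiation complex list has 4 genes lower in BxPC-3-GR and 0 tested in the CFPAC-1 lines.

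The difference of response was called for 32 of the 68 pathway genes tested, 19 positive and 13 negative, beside 14.4% and 23.6% of all genes. After the correction the counts were 12 and 17 of the 68, and 1109 and 1134 of 12184 over all genes. SPRR2B (-3.19, adjusted p = 3.01e-09) and SPRR2E (-3.15, adjusted p = 2.72e-09) were negative, as SPRR2A and SPRR2D were. These SPRR2 genes passed the minimum mean through parental BxPC-3 alone, so their differences could only be negative. The LY6 genes LYPD1 (3.16, adjusted p = 2.59e-08), PSCA (3.09, adjusted p = 2.22e-08) and LY6K (2.29, adjusted p = 2.22e-08) were positive, and so were SOX2 (3.22, adjusted p = 3.74e-09) and ELF3 (2.91, adjusted p = 7.79e-09). All these kept their calls after the correction.

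The genes nearest to SPRR1B in profile were sought among 7709 others that averaged 5 FPKM or more in any group, by the root mean square difference of centred log2(FPKM + 1) over the 12 libraries. Nearest was the collagenase MMP1 (0.696), at 229 FPKM in BxPC-3, 21.4 FPKM in BxPC-3-GR, 0.409 FPKM in CFPAC-1 and 0.450 FPKM in CFPAC-1-GR, before SERPINB2 (1.01), KRT5 (1.15), KRT6A (1.17) and SRGN (1.19). The keratins KRT5 (350 to 49.8 FPKM) and KRT6A (452 to 109 FPKM) were also lower in BxPC-3-GR than in BxPC-3, by smaller ratios of mean FPKM than SPRR1B. SRGN was the nearest gene to SPRR1A (0.206), with 52.2, 11.7, 0.0598 and 0.269 FPKM in the same order. The nearest genes to the rest were CALB1 for SPRR2A (0.418), SAMD5 for SPRR2D (0.194), FAM83D for SPRR3 (0.108), UBE4B for IVL (0.0751), ELMSAN1 for TGM1 (0.0795), ILK for LY6D (0.319), GRIPAP1 for CRABP2 (0.123) and SOX7 for DSG3 (0.176). For SPRR3, IVL and TGM1 the measure is small because their own profiles hardly vary on this scale.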

How the data were processed

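FPKM values of the 12 libraries were deposited by the authors as 1 table. Their methods name the GRCh38 assembly and Ensembl release 91, the submitters' processing notes list Trimmomatic 0.27, FastQC 0.10.1 and TopHat2 2.0.8 and both hg19 and GRCh38, and the counting program and strand setting are not given in the sources used here. The coordinates of the file matched GENCODE release 29, which gave length and GC content for 58039 of 58302 genes. Between 62.0% and 72.7% of low values per library were whole multiples (within 0.05 fragments) of the value of 1 fragment, which gave the implied depths, and precision is lowest for genes with few fragments.

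limma 3.58.1 in R 4.3.3 was run on log2(FPKM + 1), a pseudocount of 1, for genes that averaged 1 FPKM or more, on the 6 libraries of each comparison, or on all 12 for the difference of response. The authors' DESeq2 test needs counts. With 3 libraries against 3, an exact permutation test of a single gene cannot go below p = 0.1. The members and lists were chosen with earlier results of these data known. Named pathway genes were the called ones with the largest absolute log2FC, at most 3 per list and direction, leaving out S100, keratin, serpin and WAP genes. A further gene that this rule names is not reported here. TP63, CSTA, DSC3 and PKP1, named by this rule between the parental lines, were followed into the BxPC-3 lines after their values were seen, and SPRR2F was added for the same reason. Likeness was ranked for SPRR1B (5 genes) and for each other gene (1). The procedure was tested on simulated data. Alternatives were a pseudocount of 0.1, no filter, a minimum mean of 0.1 FPKM, a joint fit of all 12 libraries, blocking on the replicate number, a spline correction for GC content and length (5 degrees of freedom), both together, 2 scalings and leaving out each library. Figures were drawn with matplotlib 3.10.9, numpy 2.4.6 and pandas 2.3.3 in Python 3.11.15.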

Additional observations from a re-analysis of the deposited data

Results flagged for a closer look

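The responses of the BxPC-3 and CFPAC-1 lines differed, by the interaction term of limma, for 32 of 68 pathway genes tested, beside 14.4% positive and 23.6% negative calls over all genes. Among the 10 genes themselves, 6 lay on opposite sides in the 2 lines with no overlap of resistant and parental libraries in either, and these differences were not tested because the genes were chosen with the values known. Of all genes tested, 30.1% were higher and 36% lower without overlap in the BxPC-3 lines, and 45.7% and 36.4% in the CFPAC-1 lines. These shares are for each line alone, over genes that averaged 1 FPKM or more. The 6 genes did not reach that mean in the CFPAC-1 lines. The share of all genes on opposite sides in both lines was not counted, so nothing is read from the count of 6. Under median-of-ratios scaling DSG3 overlapped in the BxPC-3 lines. On log2(FPKM + 1), BxPC-3-GR minus BxPC-3 less CFPAC-1-GR minus CFPAC-1, the differences of response were -5.71 for SPRR1B, -5.04 for SPRR2A, -2.86 for SPRR2D, -1.02 for IVL, -0.71 for DSG3 and 5.01 for LY6D. For DSG3 the value ranged from -2.26 to 0.19 over the alternatives, so its sign is not settled. In the CFPAC-1 lines all 6 were below 2 FPKM in every library.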

How the results depend on the processing

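For 15 counts there were 240 alternative values, of which 229 stayed within 1.5 times the count reported. The exceptions were these. With a pseudocount of 0.1, 1429 genes were called in BxPC-3-GR against BxPC-3 in place of 909. Correction for GC content and length brought the genes called in CFPAC-1-GR against CFPAC-1 from 3880 to 1042 (1046 with the replicate block), in BxPC-3 against CFPAC-1 from 5274 to 3143 (3140) and in the difference of response from 4643 to 2243 (2239). The pathway genes called lower in CFPAC-1-GR went from 9 to 4 with the correction (4 with the block), to 19 with median-of-ratios scaling and to 24 with upper-quartile scaling. These scalings moved the median log2FC of all genes from 0.13 to -0.14 and -0.29, and the share of higher calls from 63.7% to 41.9% and 32.1%. In the difference of response the share of positive calls went from 37.9% to 49.4% with the correction, and to 56.2% and 60.9% with the scalings. For upper-quartile scaling in BxPC-3 against CFPAC-1 the share of higher calls went from 55.4% to 42.1%. DSC2 turned to -0.14 in CFPAC-1-GR and ANXA1 to 0.10 in the difference of response under the correction, with and without the block. The cause was not tested.

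The 4 SPRR genes and LY6D kept their direction in BxPC-3-GR under every alternative run, between -5.33 and -5.07 for SPRR1B, -2.39 and -2.21 for SPRR1A, -6.67 and -4.44 for SPRR2A, -4.94 and -2.45 for SPRR2D, and 4.07 and 5.55 for LY6D. With the minimum mean of 1 FPKM, SPRR2A, SPRR2D and LY6D passed through 1 of the 2 groups alone, which fixed their direction. All these genes were chosen with the values known, and every alternative used the same libraries, so the kept direction is a description only. Under median-of-ratios scaling DSG3 overlapped in the BxPC-3 lines, and 6 of the 10 genes in place of 7 were lower without overlap. Leaving out 1 library gave 849 to 965 genes called in BxPC-3-GR against BxPC-3 and 5 to 6 pathway genes called lower. Replicate numbers were shared, but same-numbered libraries correlated between -0.143 and 0.096, so they were not taken as pairs. The replicate block gave 908, 3883, 5279 and 4643 genes called in the 4 contrasts, and 8 and 6 pathway genes in BxPC-3-GR.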
